A study of Mus musculus with 10 samples.

Results

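The genes described here are 10 members of the system that releases and reads stress hormones, measured in the brains of mice that overexpress Glo1. They comprise the peptide Crh, its receptors Crhr1 and Crhr2, its binding protein Crhbp, the corticosteroid receptors Nr3c1 and Nr3c2, the steroid-responsive genes Fkbp5, Sgk1 and Tsc22d3, and the peptide Adcyap1. They were chosen by name, as the probe sets that the array's annotation assigns to one of these symbols alone, and all 10 were found among 19938 genes with a value. Each had 1 probe set, so no choice between probe sets was needed. The groups were Tg mice (Glo1 overexpression from a bacterial artificial chromosome, 5 arrays) and WT littermates (wild type, 5 arrays). All 10 animals were adult males of the C57Bl/6J strain background, were naive and untreated, and gave RNA from the whole brain, 1 array per mouse. No founder line or expressing cell type is named in the sources used here. On every array, Glo1 matched its label: its brightest probe set read 11.88 to 12.23 log2 units in Tg (median 12.06) and 10.27 to 10.75 in WT (median 10.55).

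Corticotropin-releasing hormone, encoded by Crh, is released by hypothalamic neurons under stress and drives the pituitary to secrete ACTH, which in turn makes the adrenal gland release corticosteroids. Corticosterone then acts back on the brain through the mineralocorticoid receptor (Nr3c2) and the glucocorticoid receptor (Nr3c1), which bind DNA and switch on genes such as Fkbp5, Sgk1 and Tsc22d3. Crh is also made outside the hypothalamus, in cortex, amygdala and olfactory bulb, and these circuits are studied for their part in anxiety, as is Glo1. In whole-brain RNA, fewer cells of a type and less RNA per cell cannot be told apart.

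Because the steroid-responsive members are read out through shared receptors, the DNA upstream of the members was inspected for the element that these receptors bind. RefSeq start windows of assembly GRCm38.p6, from 250 bases before to 50 after a start, matched 8 of the 10 members and gave 16 windows. Crh and Nr3c1 had no window, so neither was searched for any of the elements below. The glucocorticoid response element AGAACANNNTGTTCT (N is any base), searched on both strands, was present in 3 of 32851 windows of all genes (0.00913%), and 1 of these belongs to Sgk1, a gene with 6 start windows. The hexamer AGAACA, which is 1 arm of the full element and so overlaps it, was also searched on both strands. It was found in 19% of all windows and in 4 windows of the members, from Sgk1 and Tsc22d3. The cyclic AMP response element TGACGTCA, bound by CREB family factors, was in 1.79% of all windows and in 0 of the 16. Those 16 include no window of Crh, so its presence upstream of Crh was not examined. The stretches below are shown because they are matches upstream of steroid-responsive members, namely the full element of Sgk1 (chr10:21993651-21993765, plus strand, the element beginning 189 bases before the start) and the hexamer of Tsc22d3 (chrX:140600652-140600757, minus strand, the hexamer, read on the opposite strand, beginning 185 bases before the start), each read 5′ to 3′ with the match in capitals.
Sgk1: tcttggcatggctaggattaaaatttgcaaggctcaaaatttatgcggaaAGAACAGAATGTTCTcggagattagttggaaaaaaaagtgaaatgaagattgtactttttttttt
Tsc22d3: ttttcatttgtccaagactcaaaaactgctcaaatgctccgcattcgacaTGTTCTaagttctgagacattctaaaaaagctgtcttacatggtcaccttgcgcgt
A match describes the letters only; binding was not measured.

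The array titled WT brain, biological rep2 (WT replicate 2) stood apart from the others, and the genotype difference of each member and pathway gene named below is given with and without it. The mean of 12 cerebellar markers, of which Car8 was the brightest, was 8.21 log2 units on that array against 10.64 to 10.75 on the other WT arrays and 10.44 to 10.56 in Tg. The mean of 9 pituitary markers, led by growth hormone (Gh), was 9.20 on that array and 8.91 on Tg replicate 2, against 6.76 to 7.04 on the other 8 arrays. Hypothalamic markers (7 genes, Pmch brightest) also averaged highest on WT replicate 2, at 8.24 against 7.93 to 8.04 on the other arrays. Markers of choroid plexus (10 genes, Ttr brightest) were lowest there, at 8.57 against 8.67 to 8.78. Blood (2 genes, Alas2 brightest), striatum (7 genes, Pde10a brightest) and microglia (6 genes, Csf1r brightest) lists were also highest on WT replicate 2. Their means there were 8.99 against 7.66 to 7.92, 10.57 against 10.28 to 10.37, and 8.85 against 8.63 to 8.75. Olfactory bulb markers (7 genes, Doc2g brightest) ranged from 7.23 to 7.56 in WT and were highest on Tg replicates 3 and 4, at 8.02 and 7.96. Neuronal (Snap25), astrocytic (Slc1a2) and oligodendrocytic (Mbp) marker lists were read on every array, with means of 12.32 to 12.40, 10.66 to 10.73 and 11.17 to 11.39.

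**Figure D1:**
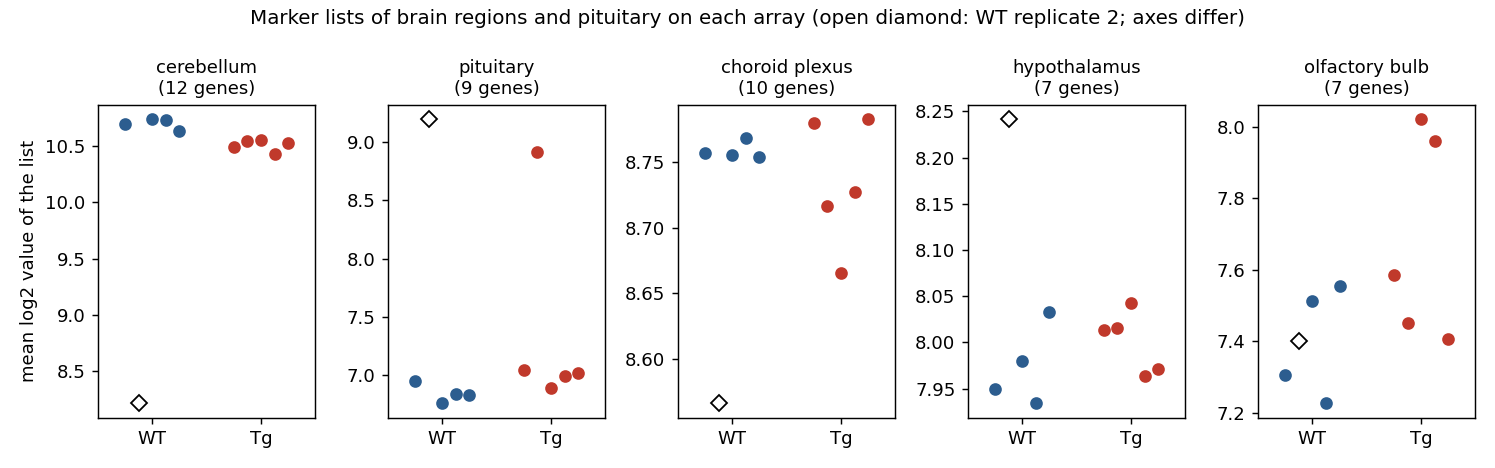
Mean log2 value of each marker list (vertical axis, own scale per panel) on each array (points), for WT and Tg brain; the open diamond is WT replicate 2. That array has the lowest cerebellar mean (8.21) and, with Tg replicate 2, a high pituitary mean (9.20 and 8.91).

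None of the 10 members differed detectably between Tg and WT brain. With all arrays, 0 of 10 passed a limma adjusted p of 0.05 over the 28944 probe sets tested, where 0.0345% of all probe sets passed. At an unadjusted p under 0.05 the count was 0 of 10, against 2.21% of all probe sets, and the groups overlapped for every member, against 0.46% of probe sets whose groups did not overlap. The mean was higher in Tg for 3 members and lower for 7 (47.8% and 52.2% of all probe sets). The median difference of the members was -0.0081 log2 units, beside -0.0031 over all probe sets. All limma 95% intervals, converted to ratios of Tg to WT, lay between 0.858 and 1.18, so larger shifts of the measured signal than these lie outside the intervals. An array can understate a true ratio, more so for dim genes such as Crh and Crhr2, which are the 2 members outside the brighter 60% of probe sets. Without WT replicate 2 the counts were 0 of 10 called (0.038% of all probe sets), 1 of 10 at an unadjusted p under 0.05 (11.0%) and 1 of 10 without overlap (3.1%). That gene was Crhr2 in both counts, and it was higher in Tg, as were 7.07% and 1.86% of all probe sets by the same criteria. On those 9 arrays the mean was higher in Tg for 5 members and lower for 5 (54.2% and 45.8% of all probe sets), and 2 of 10 signs had changed (19.6%).

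**Figure D2:**
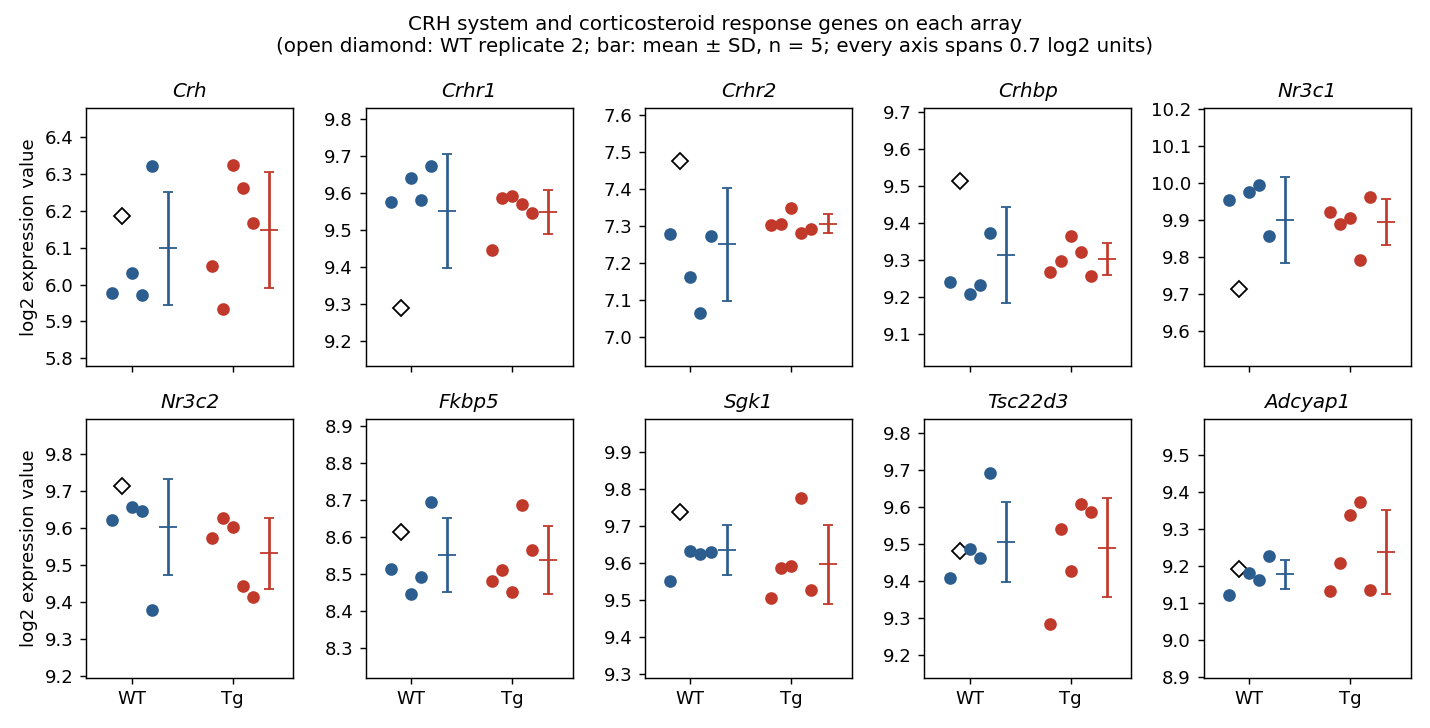
Log2 expression value (vertical axis, 0.7 log2 units in every panel) of each of the 10 members on each array (points) in WT and Tg brain, with mean ± SD (bars, n = 5); the open diamond is WT replicate 2. Tg and WT points overlap in every panel, and WT replicate 2 is the highest or lowest point for Crhr1, Crhr2, Crhbp, Nr3c1 and Nr3c2.

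Crh was dim on this array and its groups overlapped. The 5 Tg arrays, in replicate order, read 6.05, 5.93, 6.32, 6.26 and 6.17 log2 units, and the 5 WT arrays read 5.98, 6.19, 6.03, 5.97 and 6.32. High and low values occurred in both genotypes, the highest on Tg replicate 3 and WT replicate 5. The mean was 6.15 ± 0.16 in Tg and 6.10 ± 0.15 in WT (SD, n = 5 each), a difference of 0.049 (95% interval -0.14 to 0.24, exact permutation p = 0.635). The ratio was 1.03 (0.906 to 1.18), and 1.05 (0.913 to 1.21) without WT replicate 2. The 3 highest Tg values came from replicates 3, 4 and 5, and 2 of these, 3 and 4, had the highest olfactory bulb marker means; the part of that tissue in the Crh signal was not tested.

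Adcyap1 encodes PACAP, a peptide that excites CRH neurons and acts through receptors of the same class as the CRH receptors. It read 9.13, 9.21, 9.34, 9.37 and 9.14 in Tg and 9.12, 9.19, 9.18, 9.16 and 9.23 in WT. The WT arrays lay close together, while Tg replicates 3 and 4 lay above all of them. The means were 9.24 ± 0.11 and 9.18 ± 0.039 (SD, n = 5 each), with a difference of 0.060 (-0.060 to 0.18, exact permutation p = 0.333). Tg replicates 3 and 4 were also the arrays with the highest olfactory bulb markers, and the part of that tissue was not tested. Leaving out WT replicate 2, whose value of 9.19 was within the WT range, gave 0.064 (-0.063 to 0.19).

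Crhr1, the main CRH receptor of cortex, cerebellum and pituitary corticotrophs, was nearly equal in the 2 genotypes with all arrays. It read 9.45, 9.59, 9.59, 9.57 and 9.54 in Tg and 9.57, 9.29, 9.64, 9.58 and 9.67 in WT. WT replicate 2 was the lowest of all 10 arrays, 0.33 below the mean of the other 4 WT arrays. The means were 9.55 ± 0.060 and 9.55 ± 0.15 (SD, n = 5 each), and the difference was -0.0039 (-0.16 to 0.15, exact permutation p = 0.976). Without WT replicate 2 the WT SD fell to 0.048 and the difference became -0.070 (-0.16 to 0.025, limma adjusted p = 0.543, exact permutation p = 0.127). On those 9 arrays all 12 cerebellar markers also had a lower mean in Tg, with a median difference of -0.20, and their part in the Crhr1 value was not tested.

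Crhr2, the receptor that prefers urocortins and is expressed in few brain areas and in choroid plexus, was the 1 member whose groups separated when WT replicate 2 was left out. It read 7.30, 7.31, 7.35, 7.28 and 7.29 in Tg, a narrow range, and 7.28, 7.47, 7.16, 7.06 and 7.27 in WT. WT replicate 2 was the highest of the 10 arrays and WT replicate 4 the lowest. The Tg mean was 7.31 ± 0.026 and the WT mean 7.25 ± 0.15 (SD, n = 5 each), so with all arrays the difference was 0.055 (-0.090 to 0.20, exact permutation p = 0.413). Without WT replicate 2 all 5 Tg values lay above the 4 WT values, with a difference of 0.11 (0.0040 to 0.22). Its exact permutation p was 0.007937, which no division of 9 arrays into 5 and 4 can undercut. Over all probe sets it did not pass (limma adjusted p = 0.444). When the 9 arrays were also quantile normalized, an alternative chosen after seeing the data, the groups overlapped and the difference was 0.058 (-0.040 to 0.16, limma adjusted p = 0.715). The lower quartile of all probe sets was 6.41 on both WT replicate 3 and WT replicate 4, the arrays lowest for Crhr2, against 6.47 to 6.67 on the others. Of the choroid plexus markers, 8 of 10 had a lower mean in Tg without WT replicate 2, with a median difference of -0.026. The list was lowest on that array, where Crhr2 was highest. The part of choroid plexus, or of the lower quartile of an array, in the Crhr2 values was not tested.

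Crhbp, the secreted protein that binds CRH and limits its action, read 9.27, 9.30, 9.36, 9.32 and 9.26 in Tg. In WT it read 9.24, 9.51, 9.21, 9.23 and 9.37. WT replicate 2 was again the highest array, 0.25 above the mean of the other WT arrays. The Tg mean of 9.30 ± 0.043 and the WT mean of 9.31 ± 0.13 (SD, n = 5 each) differed by -0.011 (-0.14 to 0.12, exact permutation p = 0.881). It changed sign without that array, to 0.039 (-0.059 to 0.14, limma adjusted p = 0.726).

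**Figure D3:**
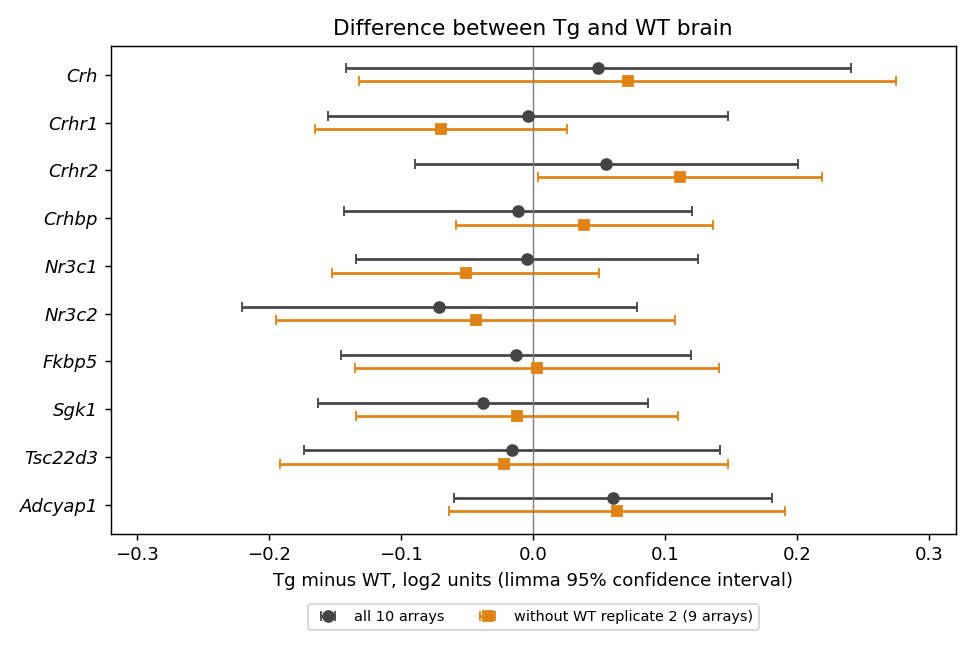
Difference between Tg and WT brain in log2 units (horizontal axis) for each member (rows), with limma 95% confidence intervals, for all 10 arrays (circles) and without WT replicate 2 (squares). Every interval includes 0 except that of Crhr2 without WT replicate 2 (0.0040 to 0.22). The intervals of Crhr1, Crhr2, Crhbp and Nr3c1 narrow most when that array is left out.

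The corticosteroid receptors did not differ detectably either. Nr3c1, the glucocorticoid receptor found in most brain cells, read 9.92, 9.89, 9.91, 9.79 and 9.96 in Tg and 9.96, 9.71, 9.98, 9.996 and 9.86 in WT. Its lowest value was on WT replicate 2, and the remaining arrays of both groups interleaved. The means were 9.90 ± 0.063 in Tg and 9.90 ± 0.12 in WT (SD, n = 5 each). The difference was -0.0048 (-0.13 to 0.12, exact permutation p = 0.944), and -0.051 (-0.15 to 0.050, limma adjusted p = 0.655) without that array.

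Nr3c2, the mineralocorticoid receptor, which is densest in hippocampus, read 9.57, 9.63, 9.60, 9.44 and 9.41 in Tg and 9.62, 9.71, 9.66, 9.64 and 9.38 in WT. Its lowest values were on WT replicate 5 and Tg replicates 5 and 4, and its highest on WT replicate 2. The means were 9.53 ± 0.097 and 9.60 ± 0.13 (SD, n = 5 each). The difference of -0.071 (-0.22 to 0.079, exact permutation p = 0.302) was the largest in size among the members with all arrays, and it was -0.044 (-0.19 to 0.11) without WT replicate 2. Without WT replicate 5, its lowest array, the difference was -0.13 (-0.25 to -0.0034), with an unadjusted limma p of 0.0450 and an adjusted p of 0.9999. On those 9 arrays 2.88% of all probe sets had an unadjusted p under 0.05. WT replicate 5 was singled out because its own Nr3c2 value was low. Removing the lowest WT value makes the difference more negative in any case, so this result is no test of a genotype difference.

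The steroid-responsive genes did not differ detectably between genotypes, while single mice of both genotypes lay 0.25 to 0.41 log2 units apart. Fkbp5, a co-chaperone that lowers the affinity of the glucocorticoid receptor and is induced by it, read 8.48, 8.51, 8.45, 8.68 and 8.56 in Tg and 8.51, 8.61, 8.44, 8.49 and 8.69 in WT. Its top values were on WT replicate 5 and Tg replicate 4. The means were 8.54 ± 0.092 and 8.55 ± 0.10 (SD, n = 5 each), a difference of -0.013 (-0.15 to 0.12, exact permutation p = 0.825), and 0.0028 (-0.13 to 0.14) without WT replicate 2.

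Sgk1, a kinase that regulates ion channels and whose upstream window holds the element shown above, read 9.50, 9.59, 9.59, 9.77 and 9.52 in Tg and 9.55, 9.74, 9.63, 9.62 and 9.63 in WT. Tg replicate 4 and WT replicate 2 were high and Tg replicate 1 was low. The means were 9.60 ± 0.11 in Tg and 9.63 ± 0.067 in WT (SD, n = 5 each). The difference was -0.038 (-0.16 to 0.087, exact permutation p = 0.484), and -0.012 (-0.13 to 0.11) without WT replicate 2. Sgk1 is induced by other stimuli as well as steroids, and which of them acted here was not measured.

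Tsc22d3, which encodes the anti-inflammatory leucine zipper protein GILZ, read 9.28, 9.54, 9.43, 9.61 and 9.59 in Tg and 9.41, 9.48, 9.49, 9.46 and 9.69 in WT. It was highest on WT replicate 5 and lowest on Tg replicate 1. The distance between those arrays, 0.41 log2 units or 1.33-fold, was about as wide as the distance between the highest and lowest arrays of Crhr2. The means were 9.49 ± 0.13 and 9.51 ± 0.11 (SD, n = 5 each), a difference of -0.016 (-0.17 to 0.14, exact permutation p = 0.833). Without WT replicate 2 the difference was -0.022 (-0.19 to 0.15).

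**Figure D4:**
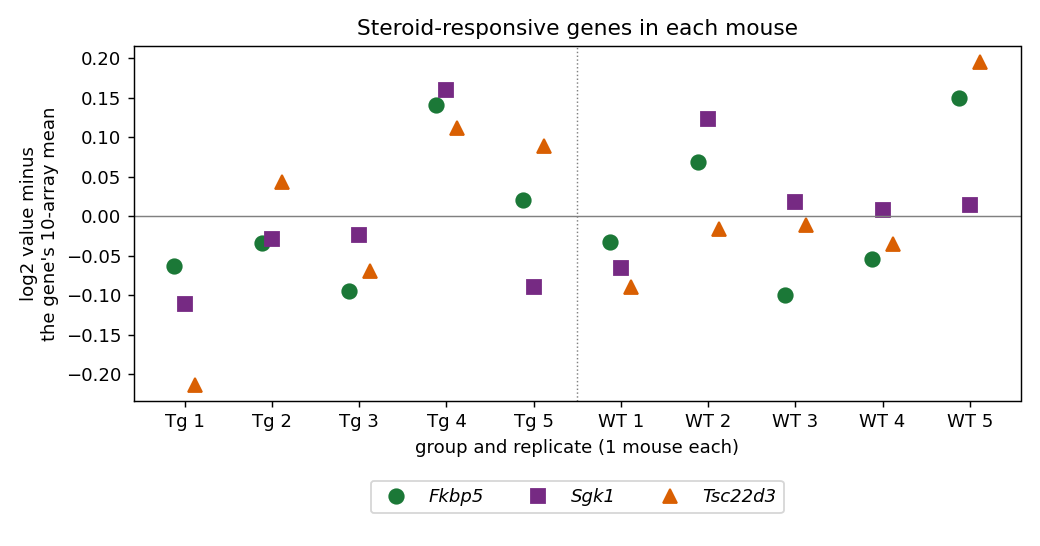
Log2 value of Fkbp5, Sgk1 and Tsc22d3 minus the gene's mean over 10 arrays (vertical axis) in each mouse (horizontal axis, group and replicate). All 3 genes lie above their means on Tg replicate 4 and WT replicate 5 and below them on Tg replicates 1 and 3 and WT replicate 1.

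Over the 10 mice the strongest of 3 pairwise relations among these genes was that of Fkbp5 and Tsc22d3. Pearson's r was 0.73 (permutation p = 0.0147, Benjamini-Hochberg adjusted 0.0440) and Spearman's rho 0.64 (permutation p = 0.0562, adjusted 0.169). Centring within genotype gave r = 0.73 and leaving out WT replicate 2 gave r = 0.78. Without WT replicate 5 and Tg replicate 4, the mice farthest from the median of Fkbp5, r was 0.39 over 8 mice. Leaving out the farthest mice also narrows the range of Fkbp5, so how far the relation depends on those 2 mice was not settled. For Fkbp5 and Sgk1, r was 0.58 (permutation p = 0.0939, adjusted 0.141), with rho 0.32 (permutation p = 0.377, adjusted 0.377), and r = 0.36 without the same 2 mice. For Sgk1 and Tsc22d3, r was 0.44 (permutation p = 0.198, adjusted 0.198), with rho 0.49 (permutation p = 0.157, adjusted 0.235), and r = 0.49 without Tg replicate 4 and WT replicate 2. All 10 arrays share these comparisons, and corticosterone was not measured.

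The spread between mice within a genotype set the precision. The residual SD of the members ran from 0.084 for Adcyap1 to 0.15 for Crh, and was below the median of all probe sets (0.10) for 5 of 10. WT replicate 2 was the highest or lowest of the 10 arrays for 5 members (51.2% of all probe sets). Leaving it out lowered the residual SD from 0.12 to 0.055 for Crhr1 and from 0.096 to 0.058 for Crhbp, while that of Tsc22d3 went from 0.12 to 0.13.

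The wider pathway was followed with 93 further genes in 6 lists, of which 84 had a value. With all arrays 0 of the 84 passed limma's adjusted threshold, 0 had an unadjusted p under 0.05, and in 0 the groups did not overlap. The mean was higher in Tg for 39 and lower for 45, with a median difference of -0.0019. Without WT replicate 2, 0 passed, 8 of 84 (9.52%, against 11.0% of all probe sets) had an unadjusted p under 0.05, 7 of them higher, and 3 (3.57%, against 3.1%) had groups that did not overlap. Those shares were close to the shares of all probe sets.

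Among the ligands and receptors related to CRH and PACAP, 5 of 7 had a higher mean in Tg and 0 passed, with a median difference of 0.082. The split was 6 higher and 1 lower without WT replicate 2, with a median of 0.099. Urocortin (Ucn), a CRH-like peptide, read 7.40 ± 0.075 in Tg and 7.32 ± 0.061 in WT (SD, n = 5 each), a difference of 0.082 (exact permutation p = 0.119), and of 0.099 without WT replicate 2. Urocortin 2 (Ucn2), a ligand of Crhr2, differed by 0.12 (exact permutation p = 0.317), and by 0.21 without WT replicate 2 (exact permutation p = 0.0317, limma adjusted p = 0.408). Ucn and Ucn2 were dim, outside the brighter 60% of probe sets. Like Crhr2, both were lowest on WT replicates 3 and 4, the arrays with the lowest lower quartile, whose part in these values was not tested.

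Peptides and receptors of the pituitary-adrenal axis had 6 of 12 means higher and 6 lower, with 0 past the threshold and a median of -0.0070. On the 9 arrays without WT replicate 2, 9 were higher and 3 lower, with a median of 0.039. The ACTH receptor Mc2r, an adrenal gene that was dim here, read 5.17 in Tg and 5.10 in WT on average, 0.072 apart (exact permutation p = 0.0317; limma adjusted p = 0.9998), and 0.067 apart without WT replicate 2 (exact permutation p = 0.0714). The melanocortin receptor Mc3r differed by -0.13 (exact permutation p = 0.183), and by -0.061 without WT replicate 2 (exact permutation p = 0.397), the array on which it was highest. Pomc, the ACTH precursor, chosen here after its values were seen because of the pituitary markers above, differed by -0.12 (-0.63 to 0.38) and by 0.13 without WT replicate 2.

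Chaperones and cofactors of the corticosteroid receptors had 7 of 13 means higher and 6 lower (median 0.018), and 0 passed. That balance turned without WT replicate 2, to 5 higher and 8 lower (median -0.017). Stip1, which links the chaperones Hsp70 and Hsp90, differed by 0.12 (exact permutation p = 0.119), and Fkbp4, a co-chaperone that favours receptor activity and opposes Fkbp5, by 0.081 (exact permutation p = 0.198). These were 0.084 and 0.087 without WT replicate 2. Of 12 genes of steroid metabolism and transport, 8 were higher and 4 lower, and 0 passed (median 0.022); without WT replicate 2, 9 were higher and 3 lower (median 0.033). Cyp11a1, the first enzyme of steroid synthesis, differed by 0.16 (exact permutation p = 0.119), and by 0.18 without that array. Hsd17b10, a mitochondrial dehydrogenase, was 0.066 higher on average (exact permutation p = 0.0238; limma adjusted p = 0.9998), and its Tg arrays read 10.61 to 10.63, while WT replicates 4 and 5 read 10.47. Its difference without WT replicate 2 was 0.081 (limma adjusted p = 0.489). The groups did not overlap there (exact permutation p = 0.007937), with a lowest Tg value of 10.613 and a highest WT value of 10.6065.

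Other corticosteroid-induced genes, a list that leaves out the 3 members, had 7 of 24 means higher and 17 lower, and 0 passed. Their median difference was -0.036. Leaving out WT replicate 2 gave 10 higher and 14 lower, with a median of -0.018. Map3k6 differed by 0.074 (exact permutation p = 0.0873), and by 0.095 without WT replicate 2 (exact permutation p = 0.0238, limma adjusted p = 0.439). Dusp1, a phosphatase that ends MAP kinase signals, differed by -0.15 (exact permutation p = 0.175), and by -0.15 without that array. The mean of the list ran from 9.41 to 9.53 in Tg and from 9.45 to 9.58 in WT, with the lowest value on Tg replicate 1 and the highest on WT replicate 2. In the cyclic AMP pathway, which carries the signal of CRH and PACAP receptors, 6 of 16 means were higher and 10 lower, with 0 past the threshold and a median of -0.0067; without WT replicate 2 the counts were also 6 and 10, with a median of -0.014. Crtc1, a coactivator of CREB, differed by -0.093 (exact permutation p = 0.0952), and by -0.083 without WT replicate 2. The adenylyl cyclase Adcy8 differed by 0.071 (exact permutation p = 0.135), and by 0.036 without WT replicate 2 (exact permutation p = 0.270), its lowest array.

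Genes whose genotype-centred values most resembled those of Fkbp5 over the 10 arrays, among 19937, were Zfp831 (r = 0.96), Vmn1r44 (0.95), Snora70 (0.95) and Hoxd4 (0.93). For Crh they were Itih2 (0.96), Gm7628 (0.94), Ccnd1 (0.92) and Olfr1262 (0.91). Vmn1r44 read 4.90 to 5.20 log2 units and Olfr1262 4.96 to 5.28, below the lower quartile of every array (6.41 to 6.67). The other genes lay above it on every array. These correlations are descriptions over arrays that share all probe sets, picked as the highest of many.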

How the data were processed

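RNA from 10 whole brains (5 Tg, 5 WT) was hybridised to Affymetrix arrays, 1 per mouse, per the labels. The deposited values are log2 expression values. The submitters' processing notes name Affymetrix Expression Console 1.1.2 as the software; background correction and normalization settings were not given in the sources used here. Values were used as deposited. Of 35556 rows, 6612 control rows (18.6%) were left out and 28944 probe sets tested; 21789 carried 1 gene, 1621 several and 5534 were unnamed here. Symbols were updated through Entrez identifiers to assembly GRCm38.p6, and a gene was read from its brightest probe set.

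Tg and WT were compared in R 4.3.3 by limma 3.58.1 (lmFit, eBayes, no covariates). P-values were adjusted by Benjamini-Hochberg over all 28944 probe sets, at a threshold of 0.05. Single genes had two-sided exact permutation tests over arrays; correlations had two-sided permutation tests. The fit was tested on simulated arrays with known differences. The members and lists were chosen with earlier results of these data known. Named list genes are those past the threshold, else the 2 of lowest p per list; Pomc was added after its values were seen. The labels name no batch. Arrays have no read depth; their number limits the precision. A probe set's level was not set against another's.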

Additional observations from a re-analysis of the deposited data

Results flagged for a closer look

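Of 20 groups of 5 arrays (10 genes in 2 genotypes), 3 held an array far from the other 4 by Dixon's criterion. The nominal rate of that criterion is about 1 in 20 for a single group. These groups share the same arrays, and the share over all probe sets was not computed, so no excess can be read from the count. For Crhr1 in WT, WT replicate 2 read 9.29, with the other WT arrays at 9.57 to 9.67. For Nr3c2 in WT, WT replicate 5 read 9.38, with the others at 9.62 to 9.71. For Tsc22d3 in WT, WT replicate 5 read 9.69, with the others at 9.41 to 9.49. The mean of the cerebellar markers, low on WT replicate 2 at 8.21, was 10.64 on WT replicate 5.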

How the results depend on the processing

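In 17 alternatives (quantile normalization, median centring, the brighter 60% of probe sets, a trended robust variance, arrays weighted by quality, a block for the replicate number, gene means and each array left out), 0 of the members tested passed, and the limma adjusted p did not fall below 0.444. Crh, Crhr2, Nr3c2, Sgk1 and Adcyap1 kept their sign in these alternatives; Crh and Crhr2 were not tested among the brighter probe sets. The other 5 changed sign in 24 values, out of the 168 values of all members together, with differences near 0. Under quantile normalization these were Crhr1 at 0.019, Crhbp at 0.010, Nr3c1 at 0.019, Fkbp5 at 0.0026 and Tsc22d3 at 0.0055; under array weights Crhbp at 0.033 and Fkbp5 at 0.0037. With single arrays left out, Crhr1 ranged from -0.070 to 0.027, Crhbp from -0.037 to 0.039, Nr3c1 from -0.051 to 0.021, Fkbp5 from -0.050 to 0.023 and Tsc22d3 from -0.046 to 0.035. The cause of these changes was not tested. Without WT replicate 2, quantile normalization or median centring of the 9 arrays, both added after seeing the data, again gave 0 calls. Against the deposited values of those arrays, Sgk1 turned to 0.018 and Tsc22d3 to 0.0071 under the former, and Fkbp5 to -0.015 under the latter. Median centring gave Crhr2 a difference of 0.094 with an interval that includes 0 (-0.011 to 0.20, limma adjusted p = 0.480). Same-numbered Tg and WT arrays deviated with correlations from -0.47 to 0.45, which do not settle whether the numbers pair the mice. With the replicate number as a block, 0 members passed and 11 probe sets in all did, against 10 without it. Of the 84 pathway genes, 0 passed in any array left out or under quantile normalization. For Fkbp5 and Tsc22d3 the adjusted permutation p of Pearson's r was at most 0.0490 when values were centred within genotype, WT replicate 2 was left out or arrays were quantile normalized, while that of Spearman's rho was 0.152, 0.151 and 0.0613, none of which passed.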

Other observations

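Across the 10 mice, Fkbp5 was compared with each of the 24 other corticosteroid-induced genes, a comparison chosen after the data were seen. Genotype-centred r was positive for 16 and negative for 8, with a median of 0.24, beside 0.092 over all 19937 genes. The positive share was 66.7%, beside 55.8% of all genes, and 0 of 24 passed a permutation test after Benjamini-Hochberg adjustment. The 4 highest r and the lowest are given here. The highest belonged to Sult1a1, a sulfotransferase, with r = 0.79 (permutation p = 0.0113, adjusted 0.154), rho = 0.85 (permutation p = 0.00302, adjusted 0.0562) and r = 0.63 without Tg replicate 4 and WT replicate 5. Plin4, a lipid droplet protein, had r = 0.77 (permutation p = 0.0128, adjusted 0.154), rho = 0.70 (permutation p = 0.0326, adjusted 0.156) and r = 0.77 without those mice. Nfkbia, an inhibitor of NF-kappaB, had r = 0.71 (permutation p = 0.0223, adjusted 0.166), rho = 0.77 (permutation p = 0.0131, adjusted 0.0934) and r = 0.55 without them. Zbtb16, a zinc finger transcription factor, had r = 0.70 (permutation p = 0.0346, adjusted 0.166), rho = 0.76 (permutation p = 0.0156, adjusted 0.0934) and r = 0.90 without them. Zbtb16 read 10.39, 10.51, 10.38, 10.58 and 10.73 in Tg and 10.36, 10.90, 10.40, 10.54 and 10.72 in WT, highest on WT replicate 2. Arrdc3 ran the other way, at r = -0.69 (permutation p = 0.0278, adjusted 0.166), rho = -0.83 (permutation p = 0.00468, adjusted 0.0562) and r = -0.87 without those mice.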
